A study of Mus musculus with 9 samples.

Results

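The genes described here are the H2 genes of the mouse major histocompatibility complex (MHC) and the butyrophilin-like (Btnl) genes, profiled for 2 histone marks in a mouse leukemia. They are the 47 of 26611 named genes in the histone count tables whose symbol starts with H2- or Btnl. By symbol they comprise 3 class I K and D genes (H2-K1, H2-K2 and H2-D1), 6 class I Q genes, 7 T genes, 12 M genes, 11 class II genes, 7 Btnl genes and H2-Ke6, which is neither a class I nor a class II gene. Of the 45 with a RefSeq position in GRCm38.p6, 43 lie on chromosome 17 between 33974659 and 37483554, and Btnl9 and Btnl10 lie on chromosome 11. Membership follows from the symbol alone, and the rule uses no measured value.

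Class I molecules present peptides from inside the cell to CD8 T cells, and class II molecules present peptides from endocytosed protein to CD4 T cells. H2-K1 and H2-D1 encode classical class I chains, whereas the Q, T and M genes encode mostly non-classical class I chains with restricted expression. Butyrophilin-like proteins are immunoglobulin-superfamily relatives of the B7 molecules, and some members shape gamma delta T cells in the gut epithelium. H3K27me3, written by Polycomb repressive complex PRC2, marks repressed genes, and H3K4me3 marks the starts of active or poised genes.

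The study profiled MLL-ENL leukemia, mouse leukemia cells with a fusion of MLL to ENL, by chromatin immunoprecipitation and sequencing of H3K27me3, H3K4me3 and the Flag tag. Its title concerns the need of acute myeloid leukemia for the homeobox factor Hhex in PRC2-mediated repression. Each mark has 1 library in each of 3 genotypes, labelled fl, ΔERT2 and ΔERT2 + Hhex-F, called floxed, deleted and rescue below. Left unstated in the sample labels are the floxed gene, the recombinase driver, the treatment or its time, whether each genotype is 1 clone, or the age and strain of any animal. All 3 genotypes share the MLL-ENL leukemia source. The rescue cells carry the same ΔERT2 label as the deleted cells with Hhex-F added.

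Named genes held 2444487, 2535576 and 4203349 H3K27me3 counts in the floxed, deleted and rescue libraries, and 645240, 420701 and 395133 H3K4me3 counts, and triplets of counts below keep that order. With 1 library per genotype there is no replicate check and no p-value. A gene was measured where its mean over the 3 libraries of a mark was at least 20 counts, and it met the size rule where the ratio of CPM (counts scaled to the total of all named genes in a library) was at least 1.5 in either direction with a 95% exact binomial interval that left out 1. Intervals, given in parentheses, cover counting error only. H3K27me3 was counted over gene spans and H3K4me3 in a window of 301 bp. Values in CPM per kb divide by the length that the authors give as counted for each gene. At some genes, H2-M5 among them, that length differs from the RefSeq span whose coordinates are printed. Less mark in every cell and fewer cells that carry the mark cannot be told apart in such bulk chromatin. Of 10 myeloid leukemia marker genes, 6 were measured in H3K4me3, with summed levels of 981, 794 and 848 CPM, while Ptprc, the CD45 gene and a minus-strand gene, had 0 counts. Markers of B cells summed to 57.3, 78.4 and 53.2 CPM over 6 genes with 1 measured, Ebf1. Those of T cells summed to 14.0, 28.5 and 25.3 CPM over 6 genes with none measured. For dendritic cells the sums were 265, 164 and 218 CPM over 6 genes with 2 measured, Xcr1 and Batf3. For intestinal epithelium they were 346, 349 and 327 CPM over 6 genes with 1 measured, Cdh1. These sums are in H3K4me3, whose window held few counts at minus-strand genes, so a low sum does not show that a cell type was absent. In H3K27me3 the myeloid markers summed to 56.0, 50.9 and 166 CPM. Sums were 1325, 1394 and 1252 CPM for B cells and 242, 214 and 256 for T cells. For dendritic cells they were 1132, 974 and 984, and for intestinal epithelium 632, 512 and 557. The part of other cell types in the results below was not tested.

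The H3K4me3 window has to be read with the strand of the gene. Of 9235 genes whose RefSeq promoter lies on the plus strand, 51.8% were measured in H3K4me3, with a median of 23.7 counts. Of 9223 genes on the minus strand, 3.91% were measured, with a median of 0.667 counts. H3K27me3 over gene spans showed no such gap, with 43.1% and 42.9% measured. Among the members, 10 of 20 plus-strand genes and 1 of 17 minus-strand genes, H2-Ke6, were measured in H3K4me3. A low H3K4me3 count at a minus-strand gene, such as H2-K1, H2-Aa, Btnl4 or Btnl6, is therefore not read here as a promoter that lacks the mark.

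The promoters show how alike these genes are, which bears on reads that near-identical copies may share. RefSeq promoter windows in GRCm38.p6, from 250 bases before to 50 bases after the start, were matched for 37 of the 47 members. H2-D1 is shown as a classical class I gene, H2-Q6, H2-Q7 and H2-Q10 because both of their marks differed between the deleted and floxed libraries, and H2-DMb1 as a class II gene with H3K4me3. Capitals mark GATTGG or its reverse complement CCAATC, the core of the Y box bound by the factor NF-Y, and GGGATTCCC, the form that a kappa B site takes in class I enhancer A.
H2-D1 (chr17:35262844-35263143, plus strand): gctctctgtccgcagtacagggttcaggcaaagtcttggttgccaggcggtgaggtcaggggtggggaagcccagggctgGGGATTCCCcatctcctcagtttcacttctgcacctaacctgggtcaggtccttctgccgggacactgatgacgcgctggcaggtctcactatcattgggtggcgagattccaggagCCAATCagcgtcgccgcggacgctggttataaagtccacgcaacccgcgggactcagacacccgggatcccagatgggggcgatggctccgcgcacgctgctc
H2-Q6 (chr17:35424600-35424899, plus strand): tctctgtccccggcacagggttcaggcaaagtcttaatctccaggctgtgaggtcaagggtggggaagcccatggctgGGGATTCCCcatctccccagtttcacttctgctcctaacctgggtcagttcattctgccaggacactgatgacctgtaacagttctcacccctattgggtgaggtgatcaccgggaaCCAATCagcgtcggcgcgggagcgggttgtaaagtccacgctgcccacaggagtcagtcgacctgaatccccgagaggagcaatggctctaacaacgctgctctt
H2-Q7 (chr17:35438905-35439204, plus strand): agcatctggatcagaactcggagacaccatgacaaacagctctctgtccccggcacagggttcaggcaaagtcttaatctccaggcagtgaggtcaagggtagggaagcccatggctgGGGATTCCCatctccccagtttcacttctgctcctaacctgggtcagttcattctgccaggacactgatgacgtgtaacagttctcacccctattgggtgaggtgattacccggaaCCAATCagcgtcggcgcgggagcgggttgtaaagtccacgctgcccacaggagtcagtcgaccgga
H2-Q10 (chr17:35469839-35470138, plus strand): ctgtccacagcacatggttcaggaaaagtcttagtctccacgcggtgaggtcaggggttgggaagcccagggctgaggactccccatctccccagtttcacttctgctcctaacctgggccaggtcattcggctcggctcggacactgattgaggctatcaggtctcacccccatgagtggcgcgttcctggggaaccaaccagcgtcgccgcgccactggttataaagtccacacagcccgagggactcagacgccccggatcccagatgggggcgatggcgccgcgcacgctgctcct
H2-DMb1 (chr17:34152941-34153240, plus strand): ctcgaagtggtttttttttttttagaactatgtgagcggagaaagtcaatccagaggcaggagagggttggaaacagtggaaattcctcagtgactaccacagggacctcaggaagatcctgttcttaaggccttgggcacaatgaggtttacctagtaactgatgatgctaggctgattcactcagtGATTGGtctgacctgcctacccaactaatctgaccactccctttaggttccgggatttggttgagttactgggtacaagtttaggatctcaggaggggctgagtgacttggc

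The Y box core, searched on both strands, stood in 28 of 41 member windows (68.3%) and in 16.1% of 32851 promoter windows of all genes. It was in 8 of 9 class II windows, 3 of 3 K and D windows, 3 of 5 Q windows, 2 of 3 T windows, 10 of 13 M windows and 1 of 7 Btnl windows. GGGATTCCC, a motif chosen after the windows had been seen, was in 5 member windows, those of H2-K1, H2-D1, H2-Q6 and H2-Q7, and in 0.353% of all windows. GAAANNGAAA, a core of the interferon-stimulated response element, was in 2 member windows (4.88%), those of H2-T22 and H2-T23, and in 3.44% of all windows. A match is a string of letters in the window and not a measured binding site. The windows of H2-Q6 and H2-Q7 were identical at 97.3% of 261 aligned positions, while H2-Q4 and H2-Q6 shared 82.6% and H2-D1 and H2-Q10 84.5%.

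Btnl4 and Btnl6, from the block that holds the lowest H3K27me3 ratios of deleted to floxed, are shown next to each other. Here capitals mark the letters that differ or have no partner in the alignment, 25 in each window, and 91.1% of aligned positions were identical.
Btnl4 (chr17:34475888-34476187, minus strand): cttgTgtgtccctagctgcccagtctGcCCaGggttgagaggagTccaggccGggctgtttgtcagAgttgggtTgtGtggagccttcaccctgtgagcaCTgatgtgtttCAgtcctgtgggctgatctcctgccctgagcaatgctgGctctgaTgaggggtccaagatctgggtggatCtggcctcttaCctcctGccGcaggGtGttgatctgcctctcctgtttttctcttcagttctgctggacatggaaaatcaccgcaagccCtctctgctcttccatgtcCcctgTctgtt
Btnl6 (chr17:34517303-34517602, minus strand): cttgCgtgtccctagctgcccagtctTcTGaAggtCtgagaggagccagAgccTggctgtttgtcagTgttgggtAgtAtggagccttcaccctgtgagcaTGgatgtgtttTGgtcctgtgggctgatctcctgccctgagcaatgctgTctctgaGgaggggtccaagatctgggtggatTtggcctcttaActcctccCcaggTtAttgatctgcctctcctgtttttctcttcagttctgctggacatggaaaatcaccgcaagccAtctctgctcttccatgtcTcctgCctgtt

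H3K27me3 over the members was lowest in the deleted library. The members held 3371, 2146 and 5808 counts, equal to 0.138% (Wilson 95% interval 0.133 to 0.143), 0.0846% (0.0811 to 0.0883) and 0.138% (0.135 to 0.142) of each library. Over all members the deleted to floxed ratio was 0.614 (0.581 to 0.648), the rescue to deleted ratio 1.63 (1.55 to 1.72) and the rescue to floxed ratio 1.002 (0.960 to 1.05). These comparisons share libraries, so a low deleted value enters 2 of them. The Q and Btnl genes together made up most of the member counts. Q genes held 50.5%, 50.6% and 45.9% of them, and Btnl genes 27.2%, 16.6% and 30.7%.

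**Figure D1:**
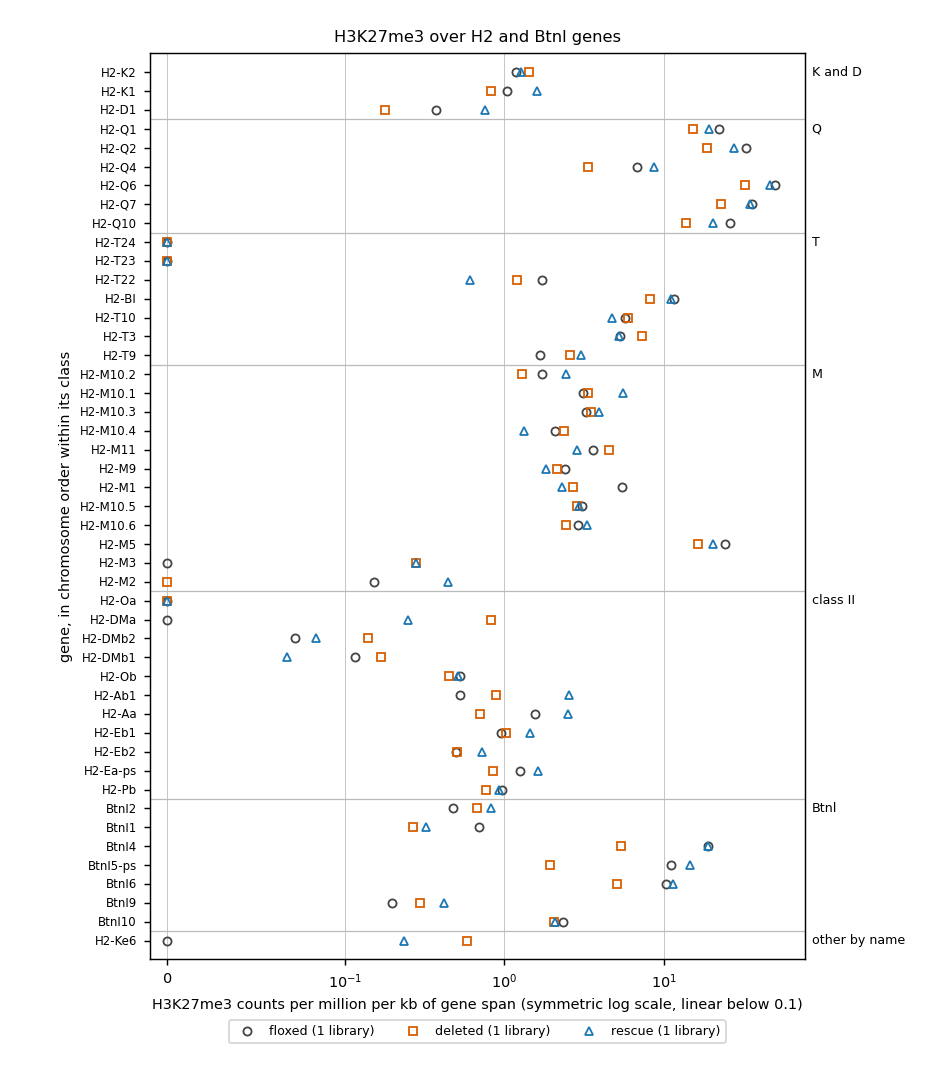
H3K27me3 of each of the 47 genes in CPM per kb of counted gene span (symmetric log axis) in the floxed, deleted and rescue libraries, 1 point per library, grouped by class. Q genes, H2-M5, H2-Bl and the Btnl4 to Btnl6 genes lie farthest to the right, and the deleted library is the lowest of the 3 at each of the 6 Q genes and at Btnl4, Btnl5-ps and Btnl6.

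Of the 47 genes, 26 were measured in H3K27me3. In deleted against floxed, 9 of these were lower by the size rule, against 5.39% of all 10604 genes measured, and 0 were higher, against 4.72%. The median log2 ratio of the measured members was -0.51, beside 0.02 for all measured genes. In rescue against deleted, 8 were higher, against 7.07% of all genes, and 0 were lower, against 11.3%, with a median of 0.50 beside -0.06. In rescue against floxed, 2 were higher (H2-M10.1 and H2-Ab1, against 5.72%) and 1 was lower (H2-M1, against 8.05%). The 9 genes lower in the deleted library were 5 Q genes, H2-M1, Btnl4, Btnl5-ps and Btnl6. The 8 genes higher in the rescue library were H2-Q4, H2-Q7, H2-M10.1, H2-Ab1, H2-Aa, Btnl4, Btnl5-ps and Btnl6. Of these, H2-Ab1 and H2-Aa reached the minimum mean of 20 counts only through the rescue library. So did H2-Eb2 and H2-Ea-ps, which enter the medians. The filter thus favours higher rescue values at these genes, and their part in the counts and medians of the rescue comparisons is not separate evidence.

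**Figure D2:**
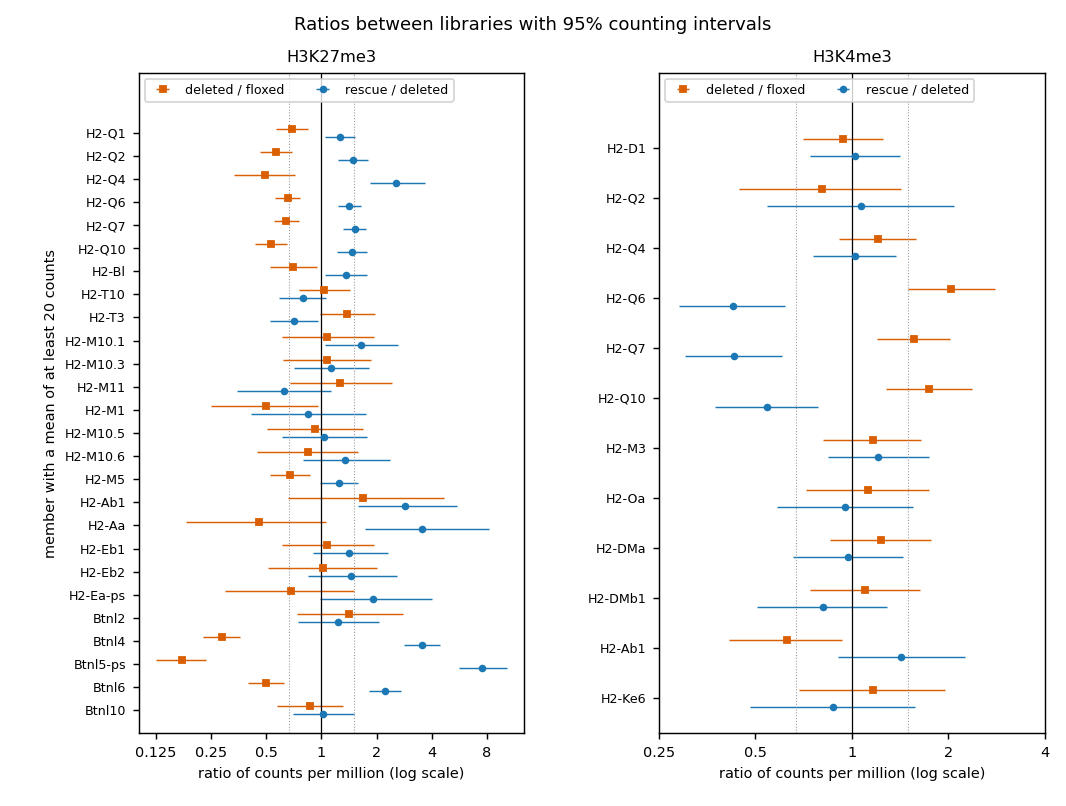
Ratios of CPM for deleted against floxed (squares) and rescue against deleted (circles) at every measured member, on a log axis, with 95% counting intervals as bars and dotted lines at a 1.5-fold change. Btnl5-ps has the most distant pair of points in H3K27me3 (0.174 and 7.51), and in H3K4me3 the ratios of H2-Q6, H2-Q7 and H2-Q10 lie on the opposite sides of 1 from their H3K27me3 ratios.

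The lowest H3K27me3 ratios of deleted to floxed among the measured members were at Btnl5-ps and Btnl4, which lie with Btnl6 in a row on chromosome 17. Btnl5-ps, a transcribed pseudogene (chr17:34487405-34497429), had 272, 49 and 610 counts, or 11.1, 1.93 and 14.5 CPM per kb. The deleted library was far below the other libraries, with a ratio of 0.174 (0.125 to 0.236) to floxed, and the rescue ratio to deleted was 7.51 (5.61 to 10.3). By log2 ratio it ranked 8 of 10604 from the lowest in deleted against floxed and 48 from the highest in rescue against deleted. Btnl4 (chr17:34468410-34477428), which encodes a butyrophilin-like membrane protein, had 316, 94 and 549 counts, or 18.8, 5.38 and 18.9 CPM per kb. Its floxed and rescue levels were alike, with a ratio of 1.01 (0.878 to 1.16), and the deleted level was 0.287 (0.225 to 0.362) of the floxed one. Btnl6 (chr17:34507870-34518776), a butyrophilin-like gene known from gut epithelium, had 236, 122 and 448 counts, or 10.3, 5.11 and 11.3 CPM per kb, with ratios of 0.498 (0.397 to 0.623) and 2.21 (1.81 to 2.73). The fold was thus smaller at Btnl6 than at Btnl4 and Btnl5-ps, and the intervals of the 3 genes in deleted against floxed do not overlap between Btnl6 and either of the others.

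The 4 other Btnl genes did not meet the size rule in any comparison of H3K27me3. Btnl1 and Btnl2, in the same chromosome 17 region, had 15, 6 and 12 counts and 17, 25 and 51 counts. Btnl2 limits T cell activation, and its ratio of deleted to floxed was 1.42 (0.736 to 2.80). Btnl9 and Btnl10, on chromosome 11, had 9, 14 and 33 counts and 51, 46 and 78 counts, with a deleted to floxed ratio of 0.870 (0.571 to 1.32) at Btnl10. Over the 7 Btnl genes together, H3K27me3 was 375, 140 and 424 CPM, with ratios of 0.375 (0.331 to 0.424), 3.02 (2.69 to 3.39) and 1.13 (1.04 to 1.23) for deleted against floxed, rescue against deleted and rescue against floxed.

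The low H3K27me3 in the deleted library extended from the Btnl genes to their neighbour on one side. BC051142, next to Btnl4, had 507, 200 and 1157 counts, with ratios of 0.380 (0.321 to 0.449) and 3.49 (3.0 to 4.08). BC051142 to Btnl6 span 120 kb (chr17:34398767-34518776). On the other side Notch4, a Notch receptor gene, was counted 213, 157 and 299 times, and its ratio of 0.711 (0.574 to 0.877) missed the size rule. Btnl1, next to BC051142 at the far end, had too few counts to be measured, with a ratio of 0.386 (0.123 to 1.05). Its interval holds both 1 and the ratio of BC051142, so where the low values end on that side is not shown. The next class II genes toward the proximal side, from H2-Aa to H2-Ea-ps, did not meet the rule in deleted against floxed. Their ratios ran from 0.457 (0.182 to 1.06) at H2-Aa to 1.08 (0.607 to 1.93) at H2-Eb1, on few counts.

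**Figure D3:**
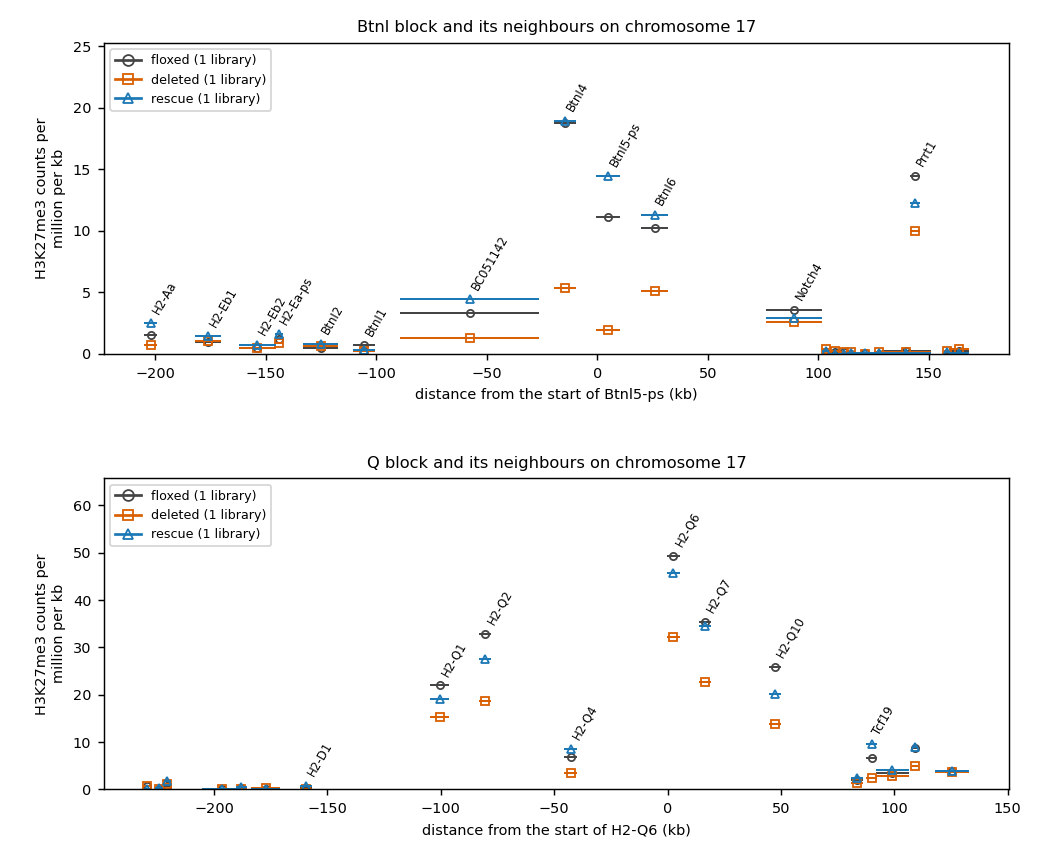
H3K27me3 in CPM per kb against distance in kb from the start of Btnl5-ps (upper panel) and of H2-Q6 (lower panel), with 1 line per gene span and library. BC051142, Btnl4, Btnl5-ps and Btnl6 show the deleted library below the others while Btnl1 and Btnl2 are near 0, and the Q genes rise above the low values of H2-D1 and the genes before it.

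The Q genes carried the densest H3K27me3 of all classes. H2-Q6 (chr17:35424850-35430055) had 420, 285 and 671 counts, or 49.3, 32.3 and 45.8 CPM per kb, and its mean density stood at percentile 99.9 of all named genes, whose median was 0.230 CPM per kb. H2-Q7 (chr17:35439140-35443773), which encodes the Qa-2 antigen, had 399, 266 and 670 counts, at percentile 99.6. H2-Q10 (chr17:35470089-35474563), known for a secreted class I chain made in liver, had 284, 156 and 380 counts, at percentile 98.6. In each of the 3 genes the deleted library was the lowest, with ratios to floxed of 0.654 (0.561 to 0.762), 0.643 (0.548 to 0.753) and 0.530 (0.433 to 0.646). The rescue to deleted ratios were 1.42 (1.24 to 1.64), 1.52 (1.32 to 1.76) and 1.47 (1.22 to 1.78), so that H2-Q7 alone of the 3 passed the 1.5-fold bound, by a narrow margin. With TMM or DESeq2 factors H2-Q2, H2-Q10 and H2-Ea-ps passed it as well (11 members in place of 8), and with background genes of the other mark H2-Q7 and H2-M10.1 did not (6 members).

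The other Q genes followed the same order of libraries. H2-Q2 (chr17:35342307-35346764) had 272, 160 and 393 counts with a deleted to floxed ratio of 0.567 (0.464 to 0.692). H2-Q4 (chr17:35379617-35384674), a class I gene of the Q region, had the least H3K27me3 of the class, 84, 43 and 183 counts, and the largest differences in it, with ratios of 0.494 (0.334 to 0.721) and 2.57 (1.83 to 3.67). At H2-Q1, the remaining Q gene, the libraries held 244, 175 and 366 counts, and the ratio of 0.691 (0.566 to 0.843) missed the 1.5-fold bound. All 6 Q genes therefore had a deleted to floxed ratio below 1 and a rescue to deleted ratio above 1. Summed over the class, H3K27me3 was 697, 428 and 634 CPM, with ratios of 0.614 (0.569 to 0.663), 1.48 (1.38 to 1.59) and 0.909 (0.855 to 0.967). The sum is less exposed than single genes to the split of reads between copies within the class. Reads dropped, counted at several copies or shared with copies outside the class would still change it. H2-Q1 to H2-Q10 span 154 kb, and Tcf19, a cell cycle gene beyond H2-Q10, had 67, 25 and 163 counts with ratios of 0.360 (0.218 to 0.577) and 3.93 (2.57 to 6.26). Pou5f1, between H2-Q10 and Tcf19, missed the rule in deleted against floxed at 0.701 (0.344 to 1.40). So did the next genes, Cchcr1 at 0.815 (0.616 to 1.08), Psors1c2 at 0.560 (0.295 to 1.03) and Cdsn at 0.925 (0.606 to 1.41). In rescue against deleted, Pou5f1 and Psors1c2 were higher by the rule, while Cchcr1 and Cdsn missed it.

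The K and D genes, of which H2-K2 is a transcribed pseudogene, had few H3K27me3 counts. H2-K1 had 11, 9 and 29 counts, H2-K2 had 12, 15 and 22, and H2-D1 had 4, 2 and 14, so none reached the minimum of 20. Their mean densities of 1.15, 1.30 and 0.436 CPM per kb lay far below those of the Q genes, although H2-D1 lies next to that block, and stood at percentiles 71.2, 72.8 and 59.4 of all named genes. The summed ratio of deleted to floxed was 0.928 (0.52 to 1.65). This interval spans 1, leaves out the Btnl class ratio of 0.375 and holds the Q class ratio of 0.614. So few counts do not set the K and D ratio apart from that of the Q genes.

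T genes differed among themselves. H2-Bl, a transcribed pseudogene, had 115, 84 and 189 H3K27me3 counts and ratios of 0.704 (0.525 to 0.941) and 1.36 (1.04 to 1.78), under the 1.5-fold bound. H2-T10 had 78, 84 and 110 counts and H2-T3, which encodes the thymus leukemia antigen, 59, 85 and 100, so that the deleted library was not the lowest at either. H2-T3 had a ratio of deleted to floxed of 1.39 (0.985 to 1.97). The class sum was 114, 111 and 105 CPM, with a ratio of 0.971 (0.820 to 1.15), unlike the sum of the Q genes, whose interval lies wholly below it. H2-T23, the Qa-1 gene that presents to natural killer cell receptors, and H2-T24 were listed at 0 in all 3 libraries, and so was the class II gene H2-Oa. Each of these 3 genes lies wholly within the annotated span of another gene, A930015D03Rik for H2-T23 and H2-T24 and BC051537 for H2-Oa. Of 760 genes of at least 2000 bp wholly inside another gene, 76.7% were at 0 in all 3 H3K27me3 libraries, against 1.24% of 15632 genes that overlap none. The zeros of these 3 members are accordingly not read as absence of the mark.

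Among the M genes 1 stood out by level. H2-M5 (chr17:36983785-36997955) had 156, 109 and 225 counts, or 24.1, 16.2 and 20.2 CPM per kb, at percentile 98.6. This density rests on a counted length of 2650 bp, which is shorter than the printed span. The deleted to floxed ratio of H2-M5, 0.674 (0.522 to 0.866), lay just inside 1.5-fold. H2-M1 was lower in both other libraries than in floxed, with 29, 15 and 21 counts and ratios to floxed of 0.499 (0.248 to 0.961) for deleted and 0.421 (0.228 to 0.764) for rescue. H2-M10.1, of the M10 family known to be expressed in vomeronasal neurons, had 25, 28 and 76 counts, and the rescue library was the high one, with a ratio of 1.64 (1.05 to 2.62) to deleted and 1.77 (1.11 to 2.90) to floxed. Its relative H2-M10.3 had 27, 30 and 56 counts and met the rule nowhere. The counts of H2-M1 and H2-M10.1 are small and their intervals end near 1. H2-M1 also reached the minimum mean of 20 counts only through the floxed library, so the filter favours its ratios to floxed below 1. The M sum was 139, 113 and 132 CPM with a deleted to floxed ratio of 0.816 (0.695 to 0.958).

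The summed H3K27me3 of the class II genes was highest in the rescue library, as was that of the Btnl genes. Unlike the Btnl sum, the class II sum in the deleted library was close to the floxed one. H2-Ab1, the beta chain of I-A, had 8, 14 and 66 counts, and its rescue to deleted and rescue to floxed ratios were 2.84 (1.58 to 5.48) and 4.80 (2.30 to 11.6). H2-Aa, the alpha chain of I-A, had 19, 9 and 53 counts and a rescue to deleted ratio of 3.55 (1.74 to 8.19). The I-E genes H2-Eb1 and H2-Eb2 had 25, 28 and 66 counts and 19, 20 and 48 counts, with rescue to deleted ratios of 1.42 (0.901 to 2.30) and 1.45 (0.843 to 2.58) that did not exclude 1. All 5 measured class II genes had a rescue to deleted log2 ratio above 0, with a median of 0.89. However, H2-Ab1, H2-Aa, H2-Eb2 and H2-Ea-ps reached the minimum mean of 20 counts only through the rescue library, the deepest of the mark. The filter thus favours ratios above 1 here, and the shared direction is not separate evidence. The class sum that follows takes in all class II genes without the filter. Over the 11 class II genes the levels were 43.4, 42.2 and 72.1 CPM, with ratios of 0.973 (0.737 to 1.29), 1.71 (1.37 to 2.15) and 1.66 (1.33 to 2.09). The peptide-loading genes H2-DMa, H2-DMb1 and H2-DMb2 had at most 6 counts in a library. The RefSeq span of H2-DMa overlaps Brd2 by 3122 bp, which is more than the 2865 bp counted for H2-DMa. How far the counted part overlaps Brd2, and the part of this in its low counts, was not tested.

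H3K4me3 was measured at 12 of the 47 genes. Members held 1039, 846 and 663 counts, or 0.161% (0.152 to 0.171), 0.201% (0.188 to 0.215) and 0.168% (0.156 to 0.181) of each library by the Wilson method. In deleted against floxed, 3 of the 12 were higher, against 3.02% of 6681 genes measured, and 1 was lower, against 4.39%. In rescue against deleted, 3 were lower, against 5.97%, and 0 were higher, against 4.49%. In rescue against floxed, 0 were lower, against 3.92%, and 0 higher, against 1.92%. The median log2 ratio of deleted to floxed was 0.21 for the 12 genes and -0.03 for all measured genes.

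**Figure D4:**
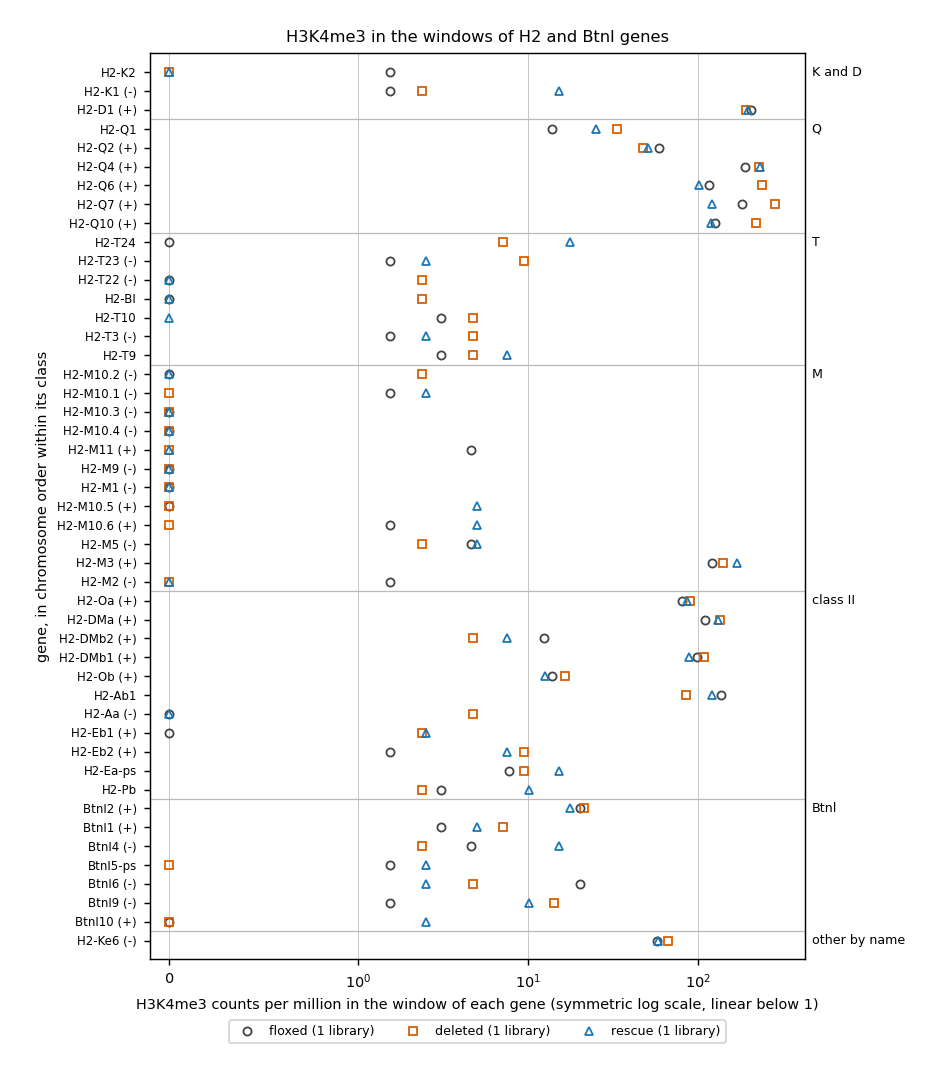
H3K4me3 of each of the 47 genes in CPM in its 301 bp window (symmetric log axis) in the floxed, deleted and rescue libraries, 1 point per library, with the strand of its RefSeq promoter after the name where there is one. H2-D1, H2-Q2 to H2-Q10, H2-M3, 4 class II genes and H2-Ke6 lie to the right, and the deleted library is the highest of the 3 at H2-Q6, H2-Q7 and H2-Q10.

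The 3 genes with higher H3K4me3 in the deleted library were H2-Q6, H2-Q7 and H2-Q10. H2-Q6 had 75, 100 and 40 counts, or 116, 238 and 101 CPM, with a deleted to floxed ratio of 2.05 (1.5 to 2.80) and a rescue to deleted ratio of 0.426 (0.288 to 0.620). H2-Q7 had 117, 119 and 48 counts, or 181, 283 and 121 CPM, with ratios of 1.56 (1.2 to 2.03) and 0.430 (0.30 to 0.605). H2-Q10 had 81, 92 and 47 counts, or 126, 219 and 119 CPM, with ratios of 1.74 (1.28 to 2.38) and 0.544 (0.374 to 0.781). In each the deleted library was highest in CPM, while the raw counts differ less, the deleted library holding fewer H3K4me3 counts in all than the floxed one. With scaling to the 1000 genes densest in H3K27me3, which include all 3 of these genes, H2-Q6 alone was higher by the rule, and with TMM factors H2-Q6 and H2-Q10 were while H2-Q7 was not. Given the 97.3% identity of the promoters printed above, H2-Q6 and H2-Q7 may share reads, so the counts of genes here and below, in which each is 1 gene, may count the same reads more than once.

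The other Q genes did not differ in H3K4me3 by the size rule. H2-Q4 had 122, 96 and 92 counts, or 189, 228 and 233 CPM, and H2-Q2 had 38, 20 and 20 counts, or 58.9, 47.5 and 50.6 CPM. H2-Q1 had 9, 14 and 10 counts and was not measured. Summed over the class the levels were 685, 1048 and 650 CPM, with ratios of 1.53 (1.34 to 1.75), 0.620 (0.530 to 0.725) and 0.949 (0.811 to 1.11).

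Outside the Q genes, H3K4me3 differed by the rule at 1 member. H2-Ab1 had 88, 36 and 48 counts, or 136, 85.6 and 121 CPM, and a deleted to floxed ratio of 0.627 (0.413 to 0.934). H2-D1, the most marked gene outside the Q class, had 132, 81 and 78 counts, or 205, 193 and 197 CPM, which agree within counting error, with a deleted to floxed ratio of 0.941 (0.705 to 1.25). H2-M3, which presents formylated bacterial peptides, had 78, 59 and 67 counts and a rescue to floxed ratio of 1.40 (0.997 to 1.97). H2-DMa and H2-DMb1, subunits of the DM peptide exchanger, had 71, 57 and 52 counts and 64, 46 and 35 counts, and the DO gene H2-Oa 52, 38 and 34. None of these differed by the rule, and the class II sum was 465, 471 and 483 CPM. The RefSeq span of H2-DMa overlaps Brd2 by 3122 bp, and that of H2-Oa lies within BC051537. Whether their H3K4me3 windows lie in these overlaps, and the part of the overlapping genes in them, was not tested. H2-Ke6, a minus-strand gene, had 37, 28 and 23 counts. The T genes had 6, 15 and 12 counts in all, of which H2-T24 had 0, 3 and 7, H2-T9 had 2, 2 and 3 and H2-T23 had 1, 4 and 1. Few counts also lay in the windows of H2-K1 (1, 1 and 6), H2-K2 (1, 0 and 0), H2-M5 (3, 1 and 2), H2-M11 (3, 0 and 0) and H2-M10.6 (1, 0 and 2). Among Btnl genes Btnl2 had 13, 9 and 7 counts, Btnl6 had 13, 2 and 1, and Btnl9 had 1, 6 and 4.

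Both marks were measured at 6 members, among 2317 genes measured in both. Lower H3K27me3 together with higher H3K4me3 in deleted against floxed was found at 12 of the 2317 genes (0.518%), and H2-Q6, H2-Q7 and H2-Q10 were 3 of these 12. In rescue against deleted, higher H3K27me3 with lower H3K4me3 was found at 47 genes (2.03%), with H2-Q7 the 1 member, whose H3K27me3 call is the one lost with background genes. H2-Ab1 had both signs the other way round, with log2 ratios of 0.69 in H3K27me3 and -0.66 in H3K4me3 for deleted against floxed, the first within counting error. Whether both marks lay on the same chromosomes or in different cells was not tested.

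**Figure D5:**
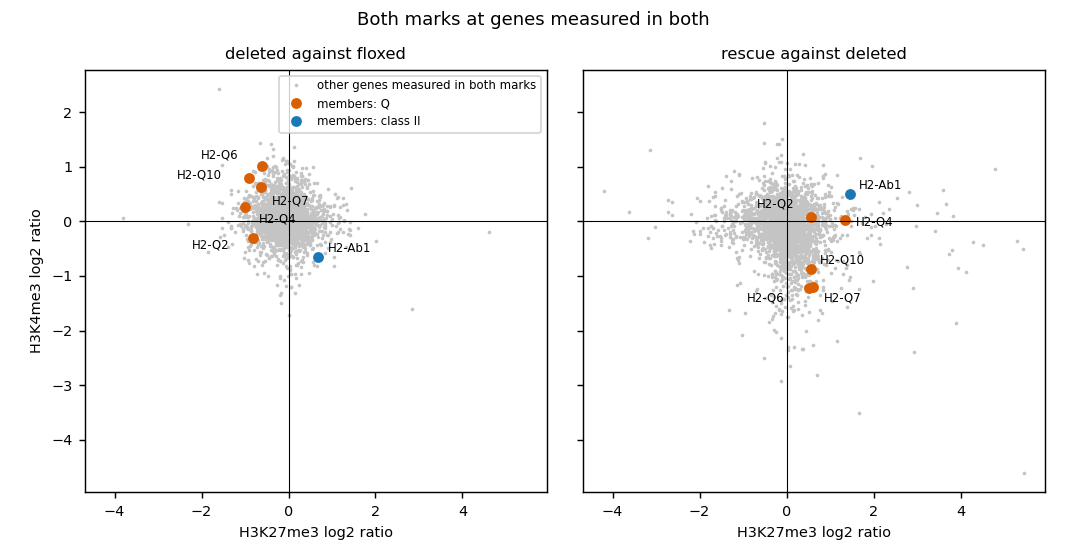
Log2 ratio of H3K4me3 against log2 ratio of H3K27me3 at the 2317 genes measured in both marks, for deleted against floxed (left) and rescue against deleted (right), with the 6 members in colour and every other gene as a grey point. H2-Q6, H2-Q7 and H2-Q10 sit in the upper left quadrant of the left panel and in the lower right quadrant of the right panel, whose values share the deleted library.

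The genes around the members differed in both directions. Of the 147 other named genes in the MHC interval, 44 were measured in H3K27me3, and in deleted against floxed 7 had lower and 3 had higher values, the median log2 ratio being -0.31. Of all genes, 5.39% were lower and 4.72% higher in that comparison. In rescue against deleted, 7 of the 44 were lower and 8 higher, beside 11.3% and 7.07% of all genes. In H3K4me3, 52 were measured, of which deleted against floxed gave 6 lower and 2 higher, beside 4.39% and 3.02% of all genes, with a median of -0.07. The same shares of all genes are the background for the lists that follow, whose counts are for deleted against floxed unless another comparison is named. Other butyrophilin-family genes, 15 in all, had 12 measured in H3K27me3, with 0 lower and 1 higher, Btn2a2 with 32, 58 and 33 counts. The 17 MHC-like class I genes listed outside H2 had 14 in the tables and 9 measured in H3K27me3, with 1 lower, Procr, the endothelial protein C receptor gene, with 86, 53 and 129 counts. Of 15 class I antigen-processing genes, 10 were measured in H3K4me3, with 1 higher in deleted against floxed, the peptide-trimming Erap1, and 0 lower. Nlrc5, the class I transactivator, was the 1 gene of that list measured in H3K27me3. It missed the rule in deleted against floxed and was lower in rescue against deleted, with a ratio of 0.658 (0.567 to 0.763). Of 12 class II machinery genes, 4 were measured in H3K27me3 and 2 in H3K4me3, with 0 meeting the rule in deleted against floxed, and Ciita, the class II transactivator, had 289, 334 and 445 H3K27me3 counts. Of 13 interferon pathway genes, 3 were measured in H3K27me3 with 0 meeting the rule in deleted against floxed, and 11 in H3K4me3 with 1 lower in that comparison, the interferon gamma receptor gene Ifngr2.

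No Flag summit lay near the members. The summit lists held 475, 220 and 429 positions in floxed, deleted and rescue, where only the rescue cells carry the tagged Hhex by their label. The number within 10 kb of a member was 0 in each list, and the number in the MHC interval was 0 in each. All of chromosome 17 held 14, 8 and 12 summits, so 0 in so small a part of it carries little information. The floxed and deleted lists hold summits without a tag by their labels, so a summit alone does not show Hhex binding. Whether Hhex binds at the members was not tested. The nearest rescue summit lay 633.8 kb from Btnl9, with a score of 5.55 in the authors' list.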

How the data were processed

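Chromatin from MLL-ENL leukemia was sonicated, precipitated with antibodies to H3K27me3, H3K4me3 or Flag and sequenced, per the labels' protocols. The authors deposited raw counts per gene for 6 histone libraries and, for Flag, summit positions with a score given as −log10 of a p or q value as the deposited lists carry it. The submitters' processing notes name mm10, featureCounts and MACS2; the aligner, the position of the H3K4me3 window and the treatment of reads that map to several copies are not given in the sources used here. Library totals leave out the 568 rows that carry no symbol, which hold between 0.608% and 0.739% of the counts.

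Counts were scaled to CPM, and ratios carry exact conditional binomial (Clopper-Pearson) intervals at 95% (Python 3.11.15, scipy 1.17.1). Log2 ratios use a prior count of 1. The size rule was tested on simulated data. Scaling alternatives used edgeR 4.0.16 (TMM) and DESeq2 1.42.0 size factors in R 4.3.3 and 1000 background genes chosen on the other mark, and filters of none and of 50 counts and a ratio of 2 were also tried. RefSeq tables of GRCm38.p6 gave positions, strands and promoters, and Biopython 1.88 aligned the promoters with free end gaps.

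Members that met the size rule, and the 3 with the most counts per class and mark, were named, with counts in every library. H2-Q1, Btnl1, Btnl10, Notch4, Pou5f1, Cchcr1, Psors1c2, Cdsn, Nlrc5 and Ciita were added after their values were seen. The members, as a group to describe, and the lists were chosen with earlier results of these data known. The strand check was added after seeing the data.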

Additional observations from a re-analysis of the deposited data

How the results depend on the processing

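No result reversed under any alternative run. Counts of members by the size rule moved by over 1.5 times as follows. In H3K27me3 deleted against floxed, 1 was higher with no filter on low counts (H2-DMa) and 5 were lower at a ratio of 2. In H3K27me3 rescue against deleted, 1 was lower with background genes (H2-T3) and 5 were higher at a mean of 50 counts. In H3K27me3 rescue against floxed, 2 were lower with no filter, 0 lower and 0 higher at a mean of 50 counts, and 1 higher at a ratio of 2. In H3K4me3 deleted against floxed, 1 was higher with background genes, and 0 were lower and 1 higher at a ratio of 2 (H2-Q6 in both). In H3K4me3 rescue against deleted, 1 was higher with background genes (H2-Ab1). In H3K4me3 rescue against floxed, 1 was lower with TMM and with DESeq2 factors (H2-Q7), and with no filter 1 was lower and 2 higher. Class sums moved beyond their intervals in 0 of 36 values with TMM, in 0 of 36 with DESeq2 factors and in 4 of 36 with background genes, all 4 of the Q class: 1.37 for H3K27me3 rescue against deleted, 0.85 for rescue against floxed, 1.3 for H3K4me3 deleted against floxed and 0.733 for rescue against deleted. Background scaling moved the median log2 ratio of all measured genes from -0.03 to -0.27 in H3K4me3 deleted against floxed and from 0.03 to 0.27 in rescue against deleted, and 8 members were among its 1000 genes. A stricter filter or ratio leaves fewer genes by construction, and the cause of the other shifts was not tested. In H3K4me3, 35 of 47 members lay below the minimum mean of 20 counts. On the minus strand 1 of 17 members reached it and on the plus strand 10 of 20, and the parts of depth and of the window position in this were not tested. No paired analysis was possible because each genotype has 1 library per mark.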

Other observations

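Btnl6 had 13, 2 and 1 H3K4me3 counts in the floxed, deleted and rescue windows, a minus-strand gene that was not measured at these counts. H2-K1 had 1, 1 and 6 H3K4me3 counts while H2-D1 had 132, 81 and 78, with promoters identical at 87.4% of aligned positions and on opposite strands. The T class sum of H3K4me3 was 6, 15 and 12 counts, a deleted to floxed ratio of 3.83 (1.41 to 12.1) although no single T gene was measured. The olfactory receptor gene Olfr94, inside the MHC interval, had 99, 51 and 160 H3K27me3 counts, with ratios of 0.497 (0.347 to 0.703) and 1.89 (1.37 to 2.65), and Gabbr1, a GABA receptor gene at the distal end, had 58, 31 and 23, lower again in the rescue library at 0.448 (0.249 to 0.793) of deleted.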
